A study of Mus musculus with 17 samples.

Results

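The miR-200 family was followed through 30 days of kidney ischemia reperfusion injury (IRI). The family was taken by name as the rows mmu-miR-200a, mmu-miR-200b, mmu-miR-200c, mmu-miR-141 and mmu-miR-429, without the partner strands marked by an asterisk, which gave 5 of the 569 mature mouse miRs on the arrays. Kidneys of C57/BL6 mice aged 10 to 12 weeks were taken 1, 3, 5, 7, 10, 14, 21 or 30 days after 30 minutes of warm ischemia (IRI) or after a sham operation, and naive mice had no operation. Each of the 17 samples was a pool of 3 mice, so there were 8 IRI pools, 8 sham pools and 1 naive pool, and no day had a second pool of either arm. The IRI pool (Cy3) and the sham pool (Cy5) of a day shared 1 array with no dye swap, and the naive pool (Cy3) was hybridised alone. The labels give female mice and the methods male mice. The methods describe a unilateral injury.

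The miR-200 family is known for holding epithelial cells in their epithelial state. Its members bind the transcripts of Zeb1 and Zeb2, repressors of E-cadherin, and these repressors in turn bind the promoters of the family's genes. Loss of the family accompanies epithelial to mesenchymal transition, and in the kidney its members are found in tubule epithelium. The seed, bases 2 to 8 from the 5′ end, decides most of the target choice of a miR, and the family holds 2 seeds that differ by a single base.

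The sequences below are shown because members that share a hairpin cluster do not all share a seed. The array targets of all 5 members matched a RefSeq mature sequence (GRCm38.p6) letter for letter, and the seed is in capitals. miR-200b, miR-200c and miR-429 carry the first seed, and miR-200a and miR-141 the second; none of the other miRs on the arrays carries either.
miR-200b: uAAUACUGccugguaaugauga
miR-429: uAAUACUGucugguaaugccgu
miR-200c: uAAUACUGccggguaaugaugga
miR-200a: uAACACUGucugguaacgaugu
miR-141: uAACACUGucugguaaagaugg

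The hairpins lie in 2 clusters, both on the minus strand. miR-200b (chr4:156055685-156055706), miR-200a (chr4:156054911-156054932) and miR-429 (chr4:156053916-156053937) come from 3 hairpins within 1846 bases of chromosome 4, inside the bounds of the annotated gene Gm13648. miR-200c (chr6:124718324-124718346) and miR-141 (chr6:124717917-124717938) come from 2 hairpins within 477 bases of chromosome 6, between the genes Phb2 and Ptpn6 and inside no other annotated gene. The mature sequences of miR-200b and miR-200c differ by an edit distance of 2, as do those of miR-200a and miR-141. Outside the family the nearest target on the arrays was miR-216a at an edit distance of 7 from miR-200b, and the other members had nearest neighbours at 8 or 9. Hybridisation of 1 member to the probe of another was not tested.

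Levels are normalized intensities, the mean of 6 spots after background correction and normalization, on a linear scale, and the levels of different miRs are not set against each other. Summed levels of a marker list, in which the brightest probes weigh most and undetected ones are included, are compared only between samples. A miR was called detected where its level reached 200 in at least 1 of the 17 samples, as 162 of the 569 miRs did. Among the family miR-200a, miR-200b, miR-429 and miR-200c were detected and miR-141 was not. The median intensity of the empty spots was 186 to 516 in the IRI channel, 33.0 to 43.9 in the sham channel and 511 on the naive array, and 104 miRs stood above that background in all 17 samples. Of 11 miRs listed as markers of tubule epithelium 9 were detected, and miR-192, an abundant kidney miR, ranged from 1467 to 10656. The liver miR-122 was at 3092 in the sham pool of day 30 and at no more than 123 in the other 16 samples, so results that use day 30 are also given without it where the call changed.

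miR-200a had the widest range of the family in the IRI pools. From day 1 to day 30, in the order of the days above, its level there was 3245, 1277, 2273, 809, 877, 836, 639 and 652. In sham pools it was 4275, 3612, 1339, 1713, 4369, 1829, 1913 and 1989 on the same days, and in the naive pool 685. Sham was above IRI on every day but day 5, when the IRI level was in the upper part of its range and the sham level was the lowest of the sham arm. The ranges of the arms overlapped, since the IRI pools of days 1 and 5 exceeded 5 of the sham pools.

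miR-429, from the same cluster with the other seed, fell more evenly in the IRI pools. Its level there was 2361, 1317, 1528, 1270, 987, 904, 659 and 685 from day 1 to day 30. The sham pools gave 1954, 2198, 1563, 1493, 1732, 1352, 1292 and 1350, and the naive pool 581. On day 1 the IRI level was the higher one, on day 5 the levels of the arms were close, and from day 7 the IRI pools lay below every sham pool.

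miR-200b, which shares the cluster with both and the seed with miR-429, had the narrowest range of these in IRI, 2.05-fold from lowest to highest, against 3.58-fold for miR-429 and 5.08-fold for miR-200a. The IRI pools gave 9172, 5717, 6574, 5377, 5434, 5947, 4585 and 4474 from day 1 to day 30. The sham pools gave 10053, 8048, 6998, 6564, 8467, 6451, 7698 and 7890, and the naive pool 6194. Sham was higher on all 8 days, and the IRI pools of days 3, 7, 10, 14, 21 and 30 lay below the lowest sham pool.

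miR-200c is the chromosome 6 member with the seed of miR-200b. Its IRI levels were 2295, 2248, 1846, 2121, 2677, 2270, 1946 and 1683 and its sham levels 1837, 2448, 1991, 1988, 2055, 1620, 1890 and 1494 from day 1 to day 30, with 2148 in the naive pool. The arms overlapped over most of their range. From lowest to highest it varied 1.59-fold in IRI and 1.64-fold in sham, where miR-200b varied 1.56-fold. With the 17 levels of a member put in order, 15 of the 16 neighbouring pairs of miR-200c, 11 of miR-200b, 12 of miR-429 and 10 of miR-200a differed by less than 2 standard errors of their spots. That error is within arrays and leaves out the spread between animals.

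miR-141 stayed near background. Its levels ran from 96.0 on day 10 to 174 on day 1 in IRI, from 101 on day 10 to 162 on day 3 in sham, with 106 in naive, and were not above the empty spots in the IRI pools of days 10, 14, 21 and 30. It entered no test among detected miRs. The highest levels of either arm came on days 1 and 3.

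**Figure D1:**
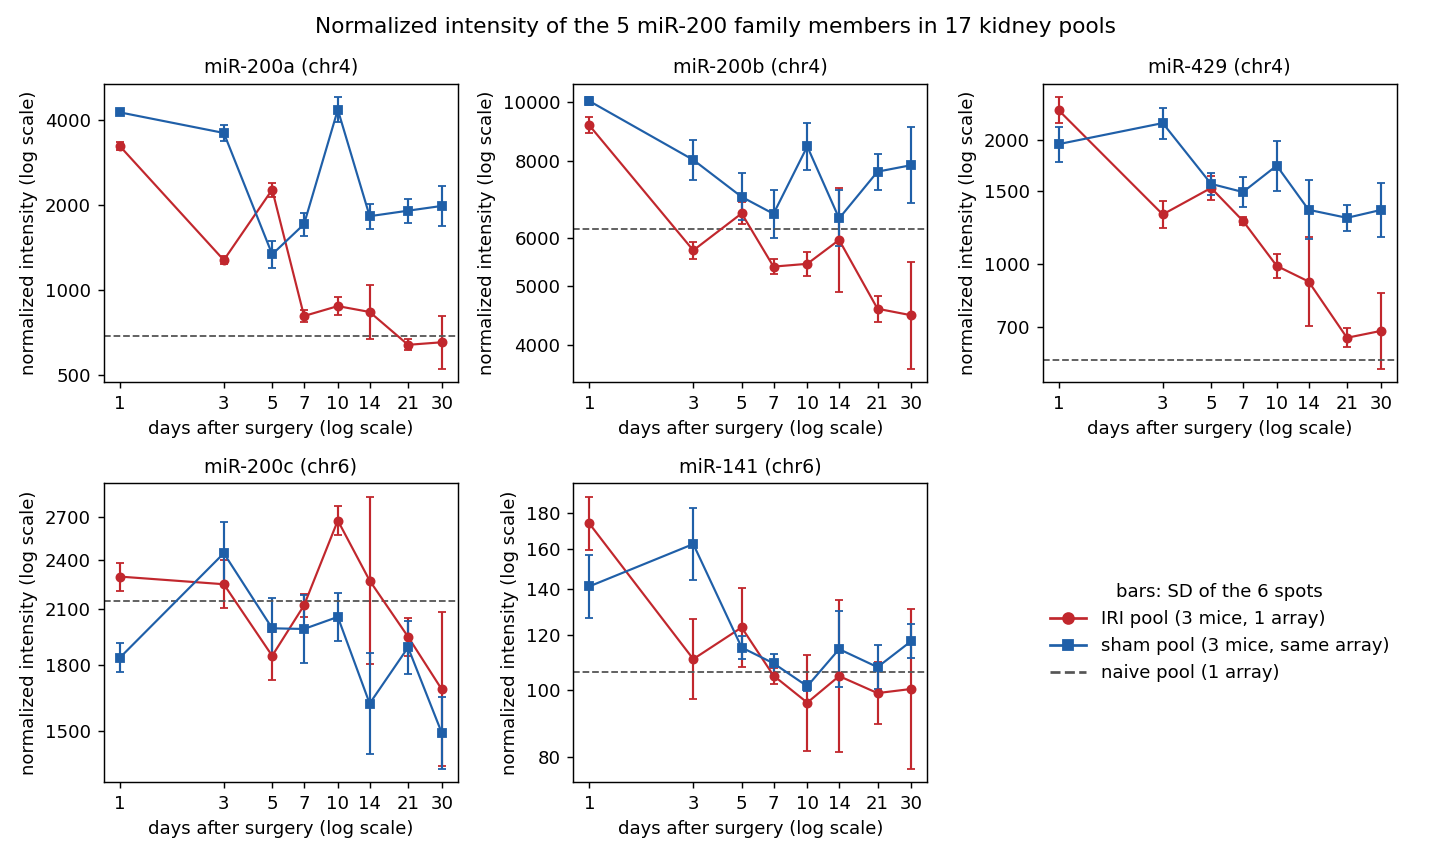
Normalized intensity (log scale) of each family member against days after surgery (log scale) in IRI pools (red circles), sham pools (blue squares) and the naive pool (dashed line), with the SD of the 6 spots as bars, which is a spread within an array and not between animals. In IRI, miR-200a and miR-429 end at 652 and 685 on day 30, below their sham levels of 1989 and 1350, while the arms of miR-200c cross.

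The first comparison asked whether IRI and sham differed on average over the 8 days, from the log2 IRI/sham ratio within each array. All 3 detected members of the chromosome 4 cluster were lower in IRI and miR-200c did not pass the test, so 3 of 4 detected members were called lower where 17.9% of the 162 detected miRs were (29 miRs) and 18.5% were called higher (30 miRs). miR-200a was lower by the most, with a mean log2 ratio of -1.11 (SE 0.298, n = 8 arrays, limma adjusted p = 0.0231), which is 2.15-fold lower and the second lowest of the 162. miR-429 had a mean log2 ratio of -0.51 (SE 0.154, n = 8 arrays, limma adjusted p = 0.0330), 1.42-fold lower. miR-200b had a mean log2 ratio of -0.42 (SE 0.106, n = 8 arrays, limma adjusted p = 0.0198), 1.33-fold lower. Its ratio was below 0 on all 8 arrays, as for 8.64% of the detected miRs (13% were above 0 on all 8), and those of miR-200a and miR-429 on 7 of 8. miR-200c had a mean log2 ratio of 0.16 (95% interval -0.04 to 0.35, limma adjusted p = 0.186) and was higher in IRI on 6 of 8 arrays; in the authors' processed values the mean was 0.043 and the ratio was above 0 on 3 of 8. The median of the mean log2 ratio over all detected miRs was -0.04.

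**Figure D2:**
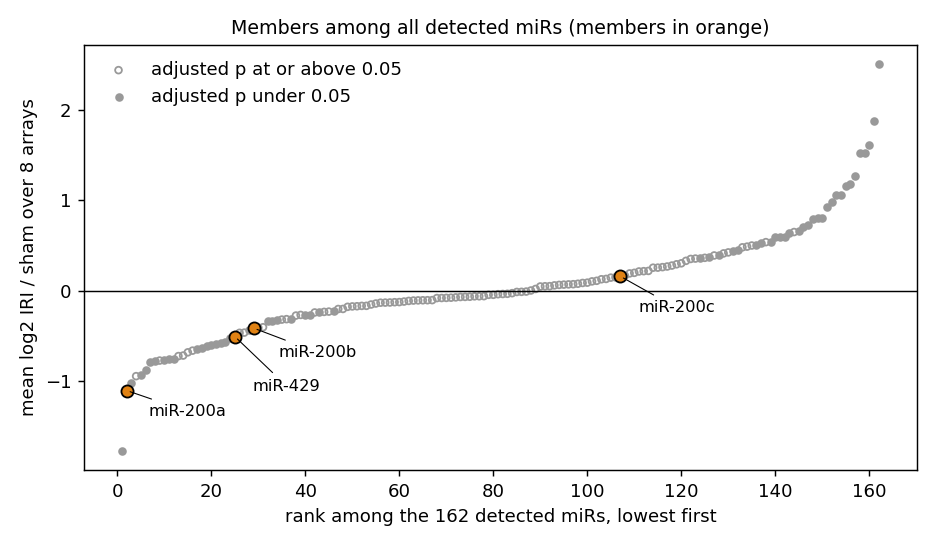
Mean log2 IRI/sham ratio over 8 arrays of the 162 detected miRs, ordered from lowest to highest, with filled points at a limma adjusted p under 0.05 and the family in orange. miR-200a stands second from the left at -1.11, miR-429 and miR-200b follow at ranks 25 and 29, and miR-200c lies at rank 107.

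Because the arms differ by dye on every array, a dye bias of a probe and a mean difference between the arms cannot be told apart. The calls rested on few arrays. For miR-200a the adjusted p rose to 0.0510 without day 7, 0.0546 without day 14, 0.0656 without day 21 and 0.0558 without day 30, with mean log2 ratios between -1.11 and -1.04. For miR-429 the adjusted p was between 0.0510 and 0.0800 without any 1 of the days 3, 7, 10, 14, 21 and 30, with mean log2 ratios between -0.55 and -0.44, and for miR-200b it was 0.0566 without day 21, at -0.37. With the arrays' pairing of the arms ignored, the adjusted p of miR-429 was 0.104. With median scaling of the channels, where 9 of 156 detected miRs were called lower and 34 higher, miR-200b (adjusted p = 0.0975) and miR-429 (adjusted p = 0.246) were not called. miR-200b was also not called in the authors' processed values (-0.31, adjusted p = 0.0785; below 0 on 7 of 8 arrays) and with plain background subtraction (-0.28, adjusted p = 0.0865).

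The ratios by day show where the differences lay. miR-200a gave log2 ratios of -0.40, -1.50, 0.76, -1.08, -2.32, -1.13, -1.58 and -1.61 from day 1 to day 30, and on days 3 and 10 no detected miR had a lower ratio. Its day 5 ratio was higher than that of 87.7% of detected miRs. miR-429 gave 0.27, -0.74, -0.03, -0.23, -0.81, -0.58, -0.97 and -0.98, and miR-200b gave -0.13, -0.49, -0.09, -0.29, -0.64, -0.12, -0.75 and -0.82. All 3 cluster members were closest to sham, or above it, on days 1 and 5, apart from the near-zero ratio of miR-200b on day 14, and miR-429 and miR-200b reached their lowest ratios on days 21 and 30. miR-200c gave 0.32, -0.12, -0.11, 0.09, 0.38, 0.49, 0.04 and 0.17, highest on days 10 and 14.

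**Figure D3:**
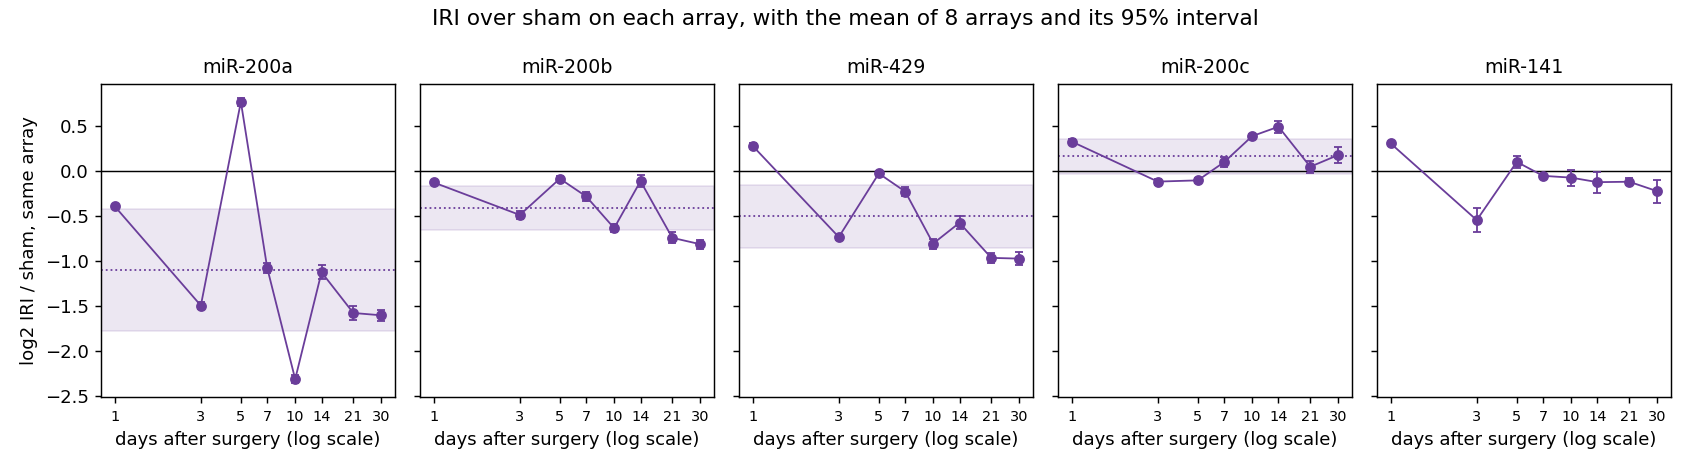
Log2 IRI/sham ratio of each member on the array of each day (days on a log scale), with the standard error of the spots as bars, the mean over 8 arrays as a dotted line and its 95% interval as a band for detected members. miR-200a ranges from -2.32 on day 10 to 0.76 on day 5, and the ratios of miR-200b are below 0 on all 8 arrays.

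The members of the chromosome 4 cluster also varied together. Over the 8 arrays the Pearson correlation of the log2 ratios was 0.85 between miR-200b and miR-429, 0.78 between miR-429 and miR-200a, and 0.75 between miR-200b and miR-200a. miR-200c correlated with the same members at 0.11, 0.00 and -0.34, in the order miR-200b, miR-429 and miR-200a. For the log2 levels the picture differed by arm: over the 8 sham pools it correlated with miR-429 at 0.72, where miR-200b did at 0.58, and over the 8 IRI pools at 0.32, where miR-200b did at 0.92. Co-variation was not limited to the cluster. The ratios of miR-141, from chromosome 6 and near background, correlated at 0.74 with miR-429, 0.55 with miR-200a and 0.52 with miR-200b. Over the IRI levels it correlated with them at 0.86, 0.91 and 0.93 in that order. These correlations are descriptions over arrays that share pools, dyes and normalization for all members.

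The difference between members was tested on the arrays with an exact two-sided sign-flip test for each of the 6 pairs of detected members, a test added after the values had been seen. The ratio of miR-200b minus that of miR-200c, which has the same seed, was -0.57 on the log2 scale (SD 0.352, lower on 7 of 8 arrays, exact p = 0.0156, adjusted over 6 pairs p = 0.0469). The ratio of miR-200c exceeded that of miR-429, also of that seed, by 0.67 (SD 0.513, on 7 of 8 arrays, exact p = 0.0234, adjusted p = 0.0469) and that of miR-200a by 1.27 (SD 1.03, on 7 of 8 arrays, exact p = 0.0234, adjusted p = 0.0469). Within the chromosome 4 cluster no pair passed (adjusted p = 0.0656 to 0.359 by the exact test), although miR-200a was lower than miR-200b and than miR-429 on 7 of 8 arrays. Without the day 5 array these differences were 0.91 and 0.80 (adjusted p = 0.0188 each by the exact test). Day 5 was the only array of the opposite sign. Leaving it out thus gives the smallest exact p that 7 arrays allow, and those p-values carry no weight. The difference of miR-200b and miR-200a passed under the authors' values (0.90, adjusted p = 0.0469) and plain background subtraction (0.97, adjusted p = 0.0352). Under the latter so did that of miR-200b and miR-429 (0.37, adjusted p = 0.0375). Each of the 3 differences from miR-200c kept its sign in all alternatives, between -0.77 and -0.35 for miR-200b. Its adjusted p reached 0.0625 to 0.0938 by the exact test when any array but that of day 5 was left out. Day 5 was the 1 array against each of these differences. While it is kept, 7 arrays cannot give the smallest exact p, so the coarse steps of the test enter into this loss.

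The second comparison asked how the levels changed with time within an arm, as the slope of the log2 level per doubling of the day, which compares pools of 1 dye. The levels were normalized with both channels of an array, so those of an arm are not free of the other channel. In IRI, all 3 chromosome 4 members fell and miR-200c did not pass, so 3 of 4 detected members were among the 4.32% of the 162 detected miRs called lower with time (7 miRs). miR-429 fell by 0.37 per doubling (slope -0.37, SE 0.0507, limma adjusted p = 0.00639), the lowest p of all 162. miR-200a fell by 0.48 (slope -0.48, SE 0.0905, limma adjusted p = 0.0199) and miR-200b fell by 0.18 (slope -0.18, SE 0.0485, limma adjusted p = 0.0492). The slope of miR-200c was -0.05 (95% interval -0.18 to 0.07, limma adjusted p = 0.598). The call of miR-429 held without each pool in turn. That of miR-200a was lost without day 1 (slope -0.42, adjusted p = 0.139) and without day 21 (slope -0.47, adjusted p = 0.0739), and that of miR-200b without any pool but day 10, with an adjusted p between 0.0519 and 0.459. With the channels scaled by their medians none of the 3 passed, at slopes of -0.42 for miR-429, -0.54 for miR-200a and -0.23 for miR-200b.

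In sham pools no member passed, and 0.617% of detected miRs were called lower there (1 miR). Only miR-429 had an unadjusted limma p under 0.05 in sham, where 8 of the 162 detected miRs had one with a lower slope and 9 with a higher. The slopes were -0.14 for miR-429 (limma adjusted p = 0.213), -0.21 for miR-200a (limma adjusted p = 0.596), -0.07 for miR-200b and -0.07 for miR-200c. The difference between the arms was tested as the slope of the log2 IRI/sham ratio, in which a dye bias equal on all arrays cancels. It passed for none of the 4 members, where 1.23% of detected miRs were called lower and 1.23% higher (2 miRs each). Again only miR-429 had an unadjusted limma p under 0.05, beside 13 lower and 21 higher of the 162 detected miRs. The ratio slope was -0.23 per doubling for miR-429 (95% interval -0.40 to -0.07, limma adjusted p = 0.130), -0.27 for miR-200a (limma adjusted p = 0.408), -0.12 for miR-200b (limma adjusted p = 0.326) and 0.02 for miR-200c (limma adjusted p = 0.907). The steeper slopes in IRI were thus not shown to differ from those in sham after adjustment over all detected miRs.

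**Figure D4:**
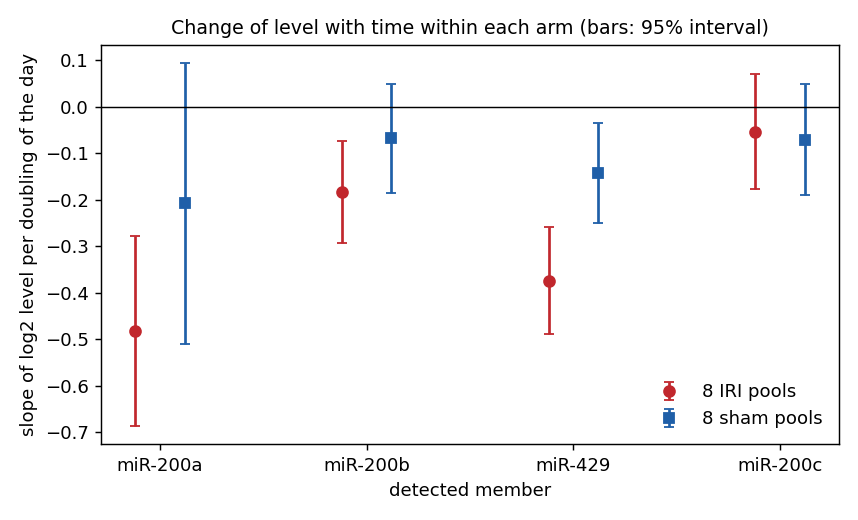
Slope of the log2 level per doubling of the day, with its 95% interval, for the 4 detected members in the 8 IRI pools (red circles) and the 8 sham pools (blue squares). The IRI slopes of miR-200a, miR-429 and miR-200b, at -0.48, -0.37 and -0.18, lie below 0 with their intervals, and both slopes of miR-200c have intervals that reach above 0.

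The IRI slopes of the members also differed from each other by an exact two-sided permutation test of the days over the same 6 pairs, again added after the values were seen. The slope of miR-200c lay above that of miR-429 by 0.32 (exact p = 0.00446, adjusted over 6 pairs p = 0.0134) and above that of miR-200a by 0.43 (exact p = 0.0177, adjusted p = 0.0266). The slope of miR-200b lay above that of miR-429 by 0.19 (exact p = 0.00129, adjusted p = 0.00774) and above that of miR-200a by 0.30 (exact p = 0.00947, adjusted p = 0.0189). The slope of miR-200b differed from that of miR-200c by -0.13 (exact p = 0.0814, adjusted p = 0.0977; with median scaling -0.17, adjusted p = 0.0347) and that of miR-429 from that of miR-200a by 0.11 (exact p = 0.255, adjusted p = 0.255). The first 4 differences were not called without the day 1 pool (adjusted p = 0.0560 to 0.240), where they were 0.31, 0.35, 0.25 and 0.29 in the order given. Those of miR-200a were also lost without day 14, at 0.0655 against miR-200c and 0.0504 against miR-200b, and that against miR-200c without day 21, at 0.0649.

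Against the naive pool, the chromosome 4 members were higher in all 8 sham pools, and the counts for IRI depend on the values used. Sham pools (Cy5) differ from the naive pool (Cy3) by dye, so a dye bias of a probe and a difference from naive cannot be told apart there. The naive signal was low, with raw spot means of 1.25 times the empty spots for miR-200a, 1.24 for miR-429, 1.47 for miR-200c and 1.96 for miR-200b, so the folds over naive are uncertain. miR-200a was above its naive level in all 8 sham pools, with a median fold of 2.85, and in 6 of 8 IRI pools, with a median fold of 1.25, and from day 7 its IRI levels were between 639 and 877 against 685 in naive. miR-429 was above naive in all 8 pools of either arm, by a median fold of 2.63 in sham and 1.93 in IRI. miR-200b was above naive in all 8 sham pools (median fold 1.26) and in 2 IRI pools, those of days 1 and 5. miR-200c was above naive in 1 sham pool and 4 IRI pools. In the authors' processed values all 8 sham pools of miR-200a, miR-429 and miR-200b and 1 of miR-200c were likewise above naive, but the IRI pools above it were 4 for miR-200a, 6 for miR-429, 6 for miR-200b and 1 for miR-200c. Of all detected miRs 38.9% were above naive in all 8 sham pools and 41.4% in all 8 IRI pools, so the count of members is read against those shares. The mean log2 level over naive in sham pools was 1.81 for miR-200a, 1.45 for miR-429, 0.31 for miR-200b and -0.18 for miR-200c, against a median over detected miRs of 0.24. In IRI pools it was 0.70, 0.94, -0.10 and -0.02 for the same members in that order, against a median of 0.20. These values have no test, since naive was 1 pool, and they moved with the normalization: the IRI means in the authors' values were 0.35, 0.49, 0.19 and -0.23 in the same order, so that of miR-200b changed sign, and with median scaling of the channels those of the 4 detected members were 3.40 to 4.23 in IRI and 3.45 to 4.78 in sham.

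The partner strands of the hairpins were mostly near background. miR-200b*, with levels of 132 to 210 in IRI, 138 to 254 in sham and 91.8 in naive, was the only one detected. Its mean log2 IRI/sham ratio was -0.24 (SE 0.0727, lower in IRI on 8 of 8 arrays, limma adjusted p = 0.0330), the direction of miR-200b from the other arm of its hairpin. It was not above the empty spots in the naive pool and the IRI pool of day 10, and in the authors' processed values its ratio was below 0 on 6 of 8 arrays. miR-200a*, at 92.0 to 110 in IRI and 100 to 119 in sham, was above the empty spots in 3 IRI and 6 sham pools. miR-200c*, at 83.4 to 98.5 in both arms, was above them in 2 IRI pools and no sham pool, and miR-141*, at 87.4 to 101, in 2 IRI pools and 1 sham pool. No fold change is given for these strands.

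Of 18 other miRs linked to epithelial to mesenchymal transition 11 were detected, 1 was called lower and 3 higher in mean IRI/sham ratio, beside 17.9% lower and 18.5% higher among all detected miRs, and their median was 0.09. miR-21, which rises in many injured and fibrotic tissues, had the highest mean log2 ratio of the list at 2.51 (limma adjusted p = 5.78e-05). miR-155, an immune cell miR, had 1.52 (limma adjusted p = 0.000887), and miR-31 had 0.59 (limma adjusted p = 0.0125) but was detected only through the IRI pools (147 to 251, against 102 to 170 in sham). The member called lower was the tubule miR-192, at -0.88 (limma adjusted p = 0.0125). The lists overlap, and miR-155 and miR-192 stand in a marker list as well.

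Markers of the cell types of the kidney give the composition beside these results, with the shares of 17.9% lower and 18.5% higher in mean ratio over all detected miRs. Of the 9 detected tubule miRs 3 were called lower (miR-192, miR-194 and miR-30d), 1 was called higher (miR-10a), and the median of their mean log2 ratio was -0.32. miR-194 had -0.76 (limma adjusted p = 0.00984). With time in IRI 1 of the 9 was called lower, miR-30e (slope -0.30, limma adjusted p = 0.0362), where 4.32% of detected miRs were. The leukocyte miRs that reached 200 in both arms, miR-155 and miR-150 (0.92), were called higher. miR-223 (0.98) was detected only through the IRI pools (109 to 375, against 81.3 to 129 in sham), so its call carries no weight here. The summed level of the 5 listed was 1447 to 3266 in IRI, 820 to 1177 in sham and 632 in naive. The defining leukocyte miRs miR-142-3p and miR-142-5p were each above background in 2 of 17 samples. Of 5 detected fibroblast or smooth muscle miRs miR-199a-3p (1.87) and miR-214 (1.16) were called higher, as was miR-199a-5p (0.43), which was detected only through the IRI pools (112 to 244, against 109 to 137 in sham). The others, miR-143 (-0.13) and miR-145 (-0.13), were not called, and the median of the mean log2 ratio over the list was 0.43. miR-199a-3p and miR-214 rose with time in IRI, by 0.41 and 0.46 per doubling, where 4.32% of detected miRs were called higher with time. The leukocyte miR-150 rose there as well, by 0.42 (limma adjusted p = 0.0482). In sham pools the slopes of miR-199a-3p and miR-214 were 0.02 and 0.37, neither called. miR-145 was called higher with time in sham (slope 0.63, limma adjusted p = 0.0213), as 0.617% of detected miRs were. The summed level of the 6 listed fibroblast or smooth muscle miRs on the arrays was 5757 to 14791 in IRI, 4387 to 13015 in sham and 9445 in naive. The summed level of the 11 tubule miRs was 32434 to 40628 in IRI, 26967 to 47845 in sham and 23782 in naive. The red cell miR-451 also fell with time in IRI (slope -0.56, limma adjusted p = 0.0199), from 832 on day 1 to 154 on day 30, and the detected endothelial miR-126-3p had a mean log2 ratio of -0.03 (limma adjusted p = 0.841). In whole kidney, fewer epithelial cells and less of a miR per cell cannot be told apart, and the part of cell composition in the family's levels was not tested.

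The miRs whose ratio pattern over the 8 arrays was most like the mean ratio of the 4 detected members were miR-155 (r = 0.79), miR-103 (r = 0.79), miR-192 (r = 0.77), miR-107 (r = 0.77) and miR-196a (r = 0.76), among 158 others with a median r of 0.10. Likeness of pattern was not likeness of level, since miR-155 was higher in IRI and miR-103, miR-107 and miR-192 were lower, with mean log2 ratios of -0.58 for miR-103 (limma adjusted p = 0.0211) and -0.61 for miR-107 (limma adjusted p = 0.0198). The least alike were miR-689 (r = -0.83), miR-99b (r = -0.83) and miR-125a-5p (r = -0.77). The family's mean ratio itself was 0.02, -0.71, 0.13, -0.38, -0.85, -0.34, -0.81 and -0.81 from day 1 to day 30.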

How the data were processed

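Kidney miRs were measured on 9 arrays, 8 with 2 colours. For every spot the authors deposited a scanner intensity without background correction, and for every miR and sample a processed intensity on a linear scale, whose making was not given in the sources used here. Columns of the processed table correlated at 0.981 to 0.9996 with their own channel and at 0.834 to 0.956 with the other, which assigned the channels of the day 10 array, whose header names neither arm.

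Background was corrected with normexp (limma 3.58.1, R 4.3.3, offset 50), spots were averaged, channels were normalized by loess (span 0.3, 4 iterations), and array means and the naive array were quantile-normalized. Ratios are thus relative to the average miR, and the naive array was given the distribution of the others. Above background means over the empty-spot median by 3 median absolute deviations. The number of arrays limits the precision.

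Ratios and levels were tested with limma (Benjamini-Hochberg over detected miRs, adjusted p under 0.05) after tests on simulated data. Days stood in for replicates, so p-values measure the spread between days of single pools. Same-day pools share an array, which is where the pairing comes from, and their deviations from the arm means correlated at -0.057 to 0.714. Exact tests used Python 3.11.15. Alternatives were the authors' table, background, scaling, spot summary, filter, floor, time scale, variance model, block and leaving out each array.

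The members, lists and rules were chosen with earlier results of these data known. Named miRs are the 5 members, their partner strands, the 5 most and 3 least alike by ratio pattern, the list members of largest mean ratio and the nearest other target sequence. miR-30d, miR-10a, miR-30e, miR-143, miR-145, miR-451, miR-126-3p, miR-142-3p, miR-142-5p and miR-122 were named after their values were seen.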

Additional observations from a re-analysis of the deposited data

Results flagged for a closer look

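The IRI level of miR-141 on day 1, 7.44 on the log2 scale (174 normalized intensity), stood apart from the other 7 IRI pools, of which the nearest was at 6.94. The gap was 0.580 of the whole range of the 8 values, over the critical value of Dixon's test. The IRI pools of days 10, 14, 21 and 30 were not above the empty spots, so background sets the lower end of that range. It was the only one of 15 sets of values tested (levels in each arm and ratios of the 5 members), and about 1 such set in 20 passes the limit by chance.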

How the results depend on the processing

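The mean ratios, IRI slopes and sham slopes of the detected members kept their direction under the alternatives run, apart from the sham slope of miR-200b, which was 0.0086 without day 1. Several calls were lost, as given below. Under the authors' processed values the mean log2 ratio of miR-200b was -0.31 (adjusted p = 0.0785) and the ratio slope of miR-200c turned to -0.033. Plain background subtraction gave -0.28 for the mean ratio of miR-200b (adjusted p = 0.0865) and -0.17 for its IRI slope (adjusted p = 0.102), with a median over naive of 0.74 in sham over all 5 members, the undetected miR-141 included. Median scaling gave mean ratios of -0.55 for miR-200b and -0.38 for miR-429, a ratio slope of 0.062 for miR-200b, IRI slopes of -0.23 for miR-200b, -0.42 for miR-429 and -0.54 for miR-200a, none of them called, medians over naive of the 5 members of 3.42 in IRI and 3.81 in sham (with miR-141 alone at 0.23 and 0.17; 0.15 and 0.35 as first normalized), and turned the difference of miR-200b minus miR-429 to -0.17. The IRI slope of miR-200b was -0.18 and not called with the median of the spots (adjusted p = 0.0592), with an intensity trend (adjusted p = 0.0518) and with a floor of 200 (adjusted p = 0.0878), which also ended the calls of miR-200a (slope -0.48, adjusted p = 0.0878) and of the mean ratio of miR-429 (-0.51, adjusted p = 0.0655). With the day in place of its logarithm the IRI slopes per day were -0.025 for miR-200b and -0.065 for miR-200a, not called. The mean ratio of miR-429 was also not called without day 10 (-0.47, adjusted p = 0.0739), with no filter (-0.51, adjusted p = 0.0534) and with no replicate block, that is without pairing by array (-0.51, adjusted p = 0.104); the block changed no other member's call. The causes were not tested.

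Leaving out each array in turn gave mean ratios of -0.46 to -0.36 for miR-200b, -0.62 to -0.44 for miR-429 and -1.37 to -0.93 for miR-200a, ratio slopes of -0.0073 to 0.10 for miR-200c, which turned at -0.0073 without day 3 and -0.0023 without day 14, and IRI slopes of -0.21 to -0.13 for miR-200b and -0.52 to -0.42 for miR-200a; sham slopes of miR-200b ran from -0.098 to 0.0086. Counts of miRs called lower in mean ratio ranged from 8 to 29 and higher from 18 to 32 when an array was left out, and counts of ratio slopes from 0 to 3 lower and 0 to 15 higher. Counts called lower in mean ratio were 9 with median scaling, 18 without day 10, 19 with a filter on the mean signal, 49 with no filter and 14 with a floor of 200, and called higher 51 with no filter and 16 with the floor. Ratio slopes called lower were 6 under the authors' values, 0 with median scaling, 4 with the mean-signal filter, 0 with no filter, 1 with no block and 4 per day, and called higher 0 with median scaling, 0 with no filter, 1 with no block and 10 per day. Depth is limited by the empty spots: miR-141 and the partner strands other than miR-200b* were too close to them for a fold change.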
